A study of Mus musculus and synthetic construct with 32 samples.

Results

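ERVK retroviruses are the beta-retrovirus-like family of mouse endogenous retroviruses, and 283 repeat names whose annotation ends in LTR.ERVK were followed here through Ythdc2 knockout gonads and an m6A immunoprecipitation. Each name has a sense and an antisense row where both were counted, which gave 564 rows over the 4 tables, of 2464 repeat rows and 88716 rows of all types. By name, 25 were intracisternal A particles (IAP, 50 rows), 10 were RLTR10 (20 rows) and 248 were other ERVK names (494 rows). Internal parts of a retrovirus carry names that end in -int, 45 in all, and most other names are long terminal repeats (LTRs), which hold the promoter.

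The series asked what loss of YTHDC2, a helicase that binds N6-methyladenosine (m6A) in RNA through a YTH domain, does to transcripts of germ cells. Total RNA came from C57BL/6J mice: Ythdc2 -/- (KO, 3 libraries) and Ythdc2 +/- (HET, 3 libraries) testes at postnatal day 12 (P12), KO (2) and HET (2) ovaries at P0, and KO (2), HET (1) and Ythdc2 +/+ (WT, 1) testes at P8. The m6A libraries were polyadenylated, fragmented testis RNA: 1 immunoprecipitate (IP) and 1 input of WT testis at P8, with 2 of each from HET testis at P12 and WT testis at P20. Folds at P12 and P20 were not used because they could not be matched to names, but the mean counts pool all m6A libraries. Per the labels' protocols, there were 2 knockout lines, one lacking exon 7 and one with stop codons placed in it, and no label assigns a library to one of them. Whole gonads were sequenced, so germ cells and somatic cells were read together.

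Each table holds the authors' own comparisons: the mean normalized count over all libraries of the table, a log2 fold and an adjusted p. No value per library was given, so no spread between replicates stands beside a value, and a row was called where the authors' adjusted p was below 0.05. Libraries per group were 3 at most, and whether they came from separate animals is not stated, so a p can measure no more than the spread between libraries. With 1 library on each side, HET over WT at P8 and the m6A comparison have no spread within the groups compared. Which spread their p rests on is not given in the sources used here. All rows of a table summed to 37066681 mean normalized counts at P12, 23754190 in ovary, 42229589 at P8 and 24879917 in the m6A table. At P8 the spermatid gene Prm2 had log2 folds of -0.29 for KO over WT (adjusted p = 1), -1.03 for KO over HET (adjusted p = 4.30e-09) and 0.74 for HET over WT (adjusted p = 0.000147), and Prm1 had -0.19 (1), -0.70 (5.00e-05) and 0.51 (0.0226), as the authors' deposited table gives them. For these genes KO and WT thus lay closer to each other than either did to the HET library. With 1 HET and 1 WT library, neither control has a replicate check, and the comparisons with both are given, that with WT first. Ythdc2 itself was lower in KO by a log2 fold of -1.29 at P12 (adjusted p = 9.87e-25), while the folds of -0.43 in ovary (adjusted p = 0.584) and -0.50 at P8 against WT (adjusted p = 1) were not called in the authors' deposited table. Counts over the whole gene cannot show a lesion of 1 exon. The tissues carried their markers: the granulosa gene Foxl2 had 2.87 mean normalized counts at P12, 195 in ovary and 0.605 at P8, and the Sertoli gene Sox9 had 1399, 125 and 1674, per the authors' deposited table.

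ERVK elements move by reverse transcription of a genomic RNA that starts in the 5' LTR and runs through gag, pro and pol, so a sense internal row reads RNA in the direction of that genome. In the mouse they include IAPs, of which the IAPE branch also keeps an envelope gene, and the ETn and MusD elements, and IAPs and ETn elements are still mobile. Their silencing rests on KRAB zinc finger proteins, TRIM28 and the histone methyltransferase SETDB1, on DNA methylation, and in germ cells on piRNAs, small RNAs that guide Piwi proteins. RLTR10B LTRs are known as enhancers in mouse spermatocytes, and RLTR10C is the LTR of MMERVK10C. A family row adds up the reads of many near-identical copies, and how reads that match several copies or lie in a host gene were assigned is not given in the sources used here.

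ERVK names made a small share of repeat counts in all tables. On the sense strand they held 2.54% of repeat counts at P12, 3.17% in P0 ovary and 3.60% at P8, and on the antisense strand 6.47%, 6.72% and 6.81%. Summed over names, they were counted more in antisense than in sense in total RNA. The sense strand held 41.5% of ERVK counts at P12, 35.4% in ovary and 39.9% at P8, against 65.3%, 54.7% and 56.5% for the sum of repeats outside ERVK. ERVK internal parts had 57.9%, 41.8% and 55.5% in sense, so in testis their summed counts were mainly sense. Single names were counted where they reached the floor for sense shares, given with the processing. By name, the median share of internal parts was 46.7% at P12, 35.7% in ovary and 42.7% at P8. Names read mainly in sense were 19 of 42, 11 of 39 and 16 of 42, so most internal names were read mainly in antisense. In the m6A table the summed shares were 59.3% for ERVK and 78.4% outside it. Single repeat families outside ERVK were not compared here. This comparison of shares is a description without a test. Summed over names, IAP lay higher than the other classes, with 63% of counts in sense at P12, 49.6% in ovary and 53.5% at P8. RLTR10 names had 42%, 48.3% and 36.2%, and the remaining ERVK names 40.4%, 34.6% and 39.3%. In ovary IAPEY4_I-int alone held 2544 of the 5984 IAP sense counts. By name, with the same floor, median shares of IAP were 47.9%, 27.7% and 38.9%. Those of RLTR10 were 42.5%, 34.3% and 38%, and those of the remaining names 32.9%, 28.4% and 30.8%. By median, IAP was thus lowest in ovary and highest in testis, by little at P8.

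The 45 internal parts together held 53354 of 159300 ERVK sense counts at P12 and 21988 of 112894 in ovary, so most of the sense signal was in other names. Among IAPs, the authors' deposited table at P12 gave the highest mean normalized counts to IAPEY4_I-int (3333), IAP1-MM_I-int (1972), IAPEz-int (1556), IAPLTR3-int (1027) and IAP-d-int (649). IAPEY4_I-int was read almost wholly in sense, at 93.2% of its counts at P12, 95.5% in ovary and 91.2% at P8. IAPEz-int, the internal part of a large group of IAPs, was read mainly in antisense, with 45% in sense at P12, 36% in ovary and 39.5% at P8. Among the other names, ERVB4_1-I_MM-int had 11251 mean normalized counts at P12, 2036 in ovary and 19428 at P8 in the authors' deposited table, and its sense share was 94.8%, 76.3% and 96.3%. MMERVK10C-int had 4698, 1064 and 3757 mean normalized counts in these tables, and its LTR, RLTR10C, had 410, 314 and 462. Counts of different names are not corrected for length, and each table was normalized on its own, so these counts describe the depth behind each row and do not compare expression between names or tables.

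The sense share of many names was higher in P12 testis than in P0 ovary. Of 241 names with at least 100 mean normalized counts over both strands in each table, 184 had the higher share in P12 testis and 57 in ovary, with a median gap of 3.58 percentage points. In 21 names the P12 share was over 20 points higher, and in 1, RLTR9B, it was over 20 points lower (19.2% in P12 testis and 39.9% in P0 ovary). The IAPE part IAPEy-int showed the widest gap, with 68.7% in sense in P12 testis, 37.8% in P8 testis and 15.4% in P0 ovary. RLTR44-int followed with 72.4%, 67.8% and 19.8%, RMER16A3 with 76.2%, 71.1% and 24.9%, and SRV_MM-int with 79.7%, 69.9% and 31.3%, in the same order of tissues. RLTR10-int went the other way, with 48.2% in P12 testis, 39.3% in P8 testis and 67.2% in P0 ovary. Between the testis ages, 3 names lay over 20 points apart, the widest by 30.9 points. These shares pool KO and control libraries of each table, and tissue, sex, age and sequencing run cannot be told apart.

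**Figure D1:**
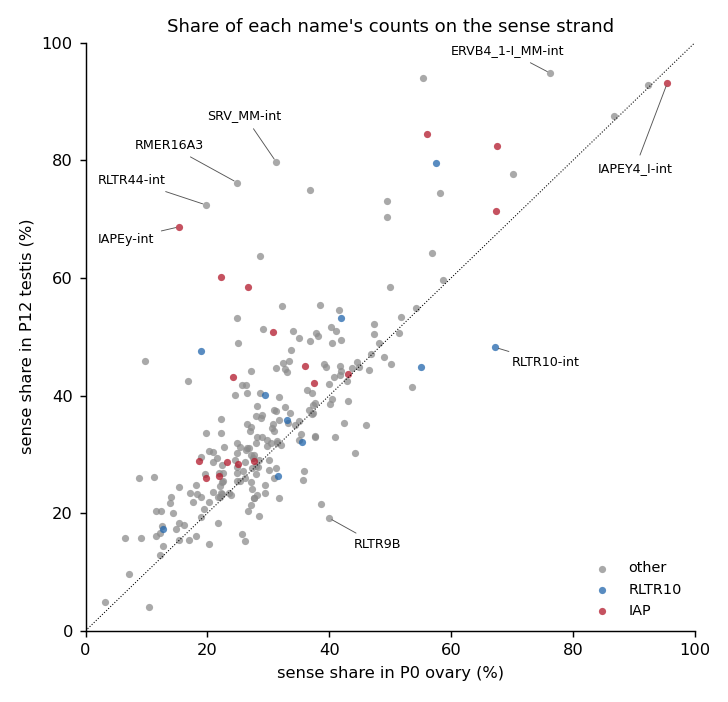
Share of each ERVK name's mean normalized counts on the sense strand (%), in P12 testis on the vertical axis and in P0 ovary on the horizontal axis, for the 241 names with at least 100 counts over both strands in each; the dotted line marks equal shares and colours mark the class. Most points lie above the line (184 of 241), IAPEy-int is farthest above it and RLTR10-int is among those below.

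In newborn ovary, loss of Ythdc2 went with changes in 4 ERVK names, all in sense and all IAP or RLTR10. IAPEY4_I-int, by its name the internal part of an IAPE element, was higher in KO than in HET ovary, and IAP-d-int, RLTR10-int and RLTR10 were lower. Of 557 ERVK rows with an adjusted p, 1 was called higher and 3 lower (0.718%), where 0.332% of 2407 repeat rows were called. By strand, 4 of 277 ERVK sense rows were called and 0 of 280 antisense rows, and 2 of 930 sense rows of other repeats. Whether p was adjusted over the whole table or within each row type is not given in the sources used here. Calls on the sense strand, the antisense strand and exons may thus rest on different corrections.

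IAPEY4_I-int averaged 2544 mean normalized counts over the 4 ovary libraries, and its log2 fold, KO over HET, was 0.63 (adjusted p = 2.48e-18), per the authors' deposited table. Its antisense row, with 120 mean normalized counts, had a log2 fold of 0.049 (adjusted p = 0.997) there. The LTR of the same element, IAPEY4_LTR, had 0.13 in sense at 78.4 mean normalized counts (adjusted p = 1). Though not called, this was the highest fold of the 220 ERVK sense rows outside internal parts with at least 10 mean normalized counts. RLTR10-int, with 1403 mean normalized counts, was lower in KO by a log2 fold of -0.63 (adjusted p = 9.12e-14), and the LTR RLTR10, with 428, by -0.68 (adjusted p = 5.97e-12), per the authors' deposited table. Their antisense rows had log2 folds of -0.003 and -0.015 (adjusted p = 0.997 each) in the authors' deposited table, at 686 and 351 mean normalized counts, so the calls were in sense alone. Ovary folds of ERVK rows spread less in antisense in general. Their standard deviation was 0.0326 in antisense and 0.0842 in sense at 100 to 1000 mean normalized counts, and 0.00929 and 0.0419 at 10 to 100. A near-0 antisense fold thus does not show that a change was confined to 1 strand. RLTR10A, at 150 mean normalized counts, had a log2 fold of -0.28 that was not called (adjusted p = 0.165), per the authors' deposited table. IAP-d-int, another IAP internal part, had 521 mean normalized counts and a log2 fold of -0.37 (adjusted p = 0.00959), and its antisense row 0.015 (adjusted p = 0.997), per the authors' deposited table.

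The other ovary folds were small. Of RLTR10 names, RLTR10C, RLTR10B2, RLTR10B, RLTR10E and RLTR10D2 had sense log2 folds of -0.048, -0.058, 0.005, 0.078 and 0.10 per the authors' deposited table, each at an adjusted p of 1. Over the 25 IAP sense rows with at least 10 mean normalized counts the median log2 fold was -0.018, with 22 within 0.1 of 0, and IAPEz-int had -0.023 in the authors' deposited table. At 100 or more mean normalized counts, folds of the other names ran from RLTR40 (-0.13) and RLTR19 (-0.12) up to ERVB4_1C-LTR_Mm and RMER3D-int (0.10 each), each with adjusted p = 1, as the authors' deposited table gives them. The mean of IAP folds weighted by count was 0.23, opposite in sign to the median, and IAPEY4_I-int is the IAP row with the most counts. RLTR10 sense rows had a median of -0.053 (10 rows) and the other ERVK names -0.003 (230 rows, from -0.13 to 0.12), beside -0.000 over 1043 sense repeat rows.

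Oocyte markers were read beside these folds. Figla and Nobox, transcription factors of oocytes, were lower in KO ovary by log2 folds of -1.41 (adjusted p = 4.20e-14) and -1.79 (adjusted p = 1.72e-22), per the authors' deposited table. The germ cell genes Ddx4 (-0.34) and Dazl (-0.15) and the granulosa genes Foxl2 (-0.10) and Fst (0.36) were not called there (adjusted p = 1 each). Of the 6 ovary markers, 2 were called lower and 0 higher. Fewer cells of a type and less RNA per cell cannot be told apart in bulk tissue, and the part of the oocyte markers in the retroviral folds was not tested. Markers of blood, Hbb-bt and Ptprc, had log2 folds of -0.14 and -0.13 (adjusted p = 1 each) in the authors' deposited table, and Hba-a1 had 0.505 mean normalized counts.

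Genes that silence retroviruses were read from a list of 43, of which 42 had a fold. In ovary 8 of 40 with an adjusted p were lower in KO and 0 higher, where 0.536% of 14935 sense exon rows were called. All 8 are genes of the piRNA pathway or its cofactors: the tudor domain genes Tdrd1 (-1.83), Tdrd9 (-1.52) and Tdrd5 (-0.73), the Piwi gene Piwil2 (-1.16), the piRNA factors Mael (-1.21), Mov10l1 (-1.08) and Gtsf1 (-0.55), and the co-chaperone Fkbp6 (-0.71), as log2 folds in the authors' deposited table, with adjusted p between 3.08e-25 for Tdrd1 and 0.0284 for Gtsf1. Asz1, of the same pathway, had -0.57 (adjusted p = 0.0677) and Tex19.1, a germ cell gene that restrains retroviruses, -0.49 (adjusted p = 0.263), per the authors' deposited table. The chromatin genes Trim28 (0.013), Setdb1 (0.14), Dnmt1 (0.030) and Uhrf1 (-0.086) were not called there (adjusted p = 1 each). The median over the 40 genes at the count floor was -0.043, and the part of the oocyte markers in these values was not tested.

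At P12, when the first germ cells have entered meiosis in control testes, 1 ERVK row was called in KO against HET testis. It was RLTR10B2, lower in KO. Of 483 ERVK rows with an adjusted p, this is 0.207%, where 1.05% of 1911 repeat rows were called, 19 of those 20 being antisense rows outside ERVK. It was also the 1 called row of 1215 sense repeat rows, and 77 antisense but 0 sense ERVK rows had no adjusted p.

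RLTR10B2, a member of the RLTR10B group of LTRs, had 129 mean normalized counts and a log2 fold of -0.51 (adjusted p = 0.0379), per the authors' deposited table, and its antisense row -0.015 (adjusted p = 0.975). The related RLTR10B, at 208 mean normalized counts, had -0.14 (adjusted p = 0.981) there. Other RLTR10 names lay on both sides of 0 in the authors' deposited table: RLTR10E at 0.30 (adjusted p = 0.663), RLTR10D2 at 0.24 (0.926), RLTR10D at 0.18 (0.981) and RLTR10C at -0.15 (0.981). RLTR10-int and RLTR10, lower in KO ovary, had 0.10 and -0.088 at P12 (adjusted p = 0.981 each) in the authors' deposited table. So among the 10 RLTR10 names, 4 sense folds were above 0 and 6 below, with a median of -0.050.

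IAP rows at P12 included 0 called of 25 in sense and 0 of 14 in antisense. The tables hold no unadjusted p, and the lowest adjusted p of an IAP sense row was 0.737, that of IAPEy-int, whose log2 fold was 0.23 in the authors' deposited table. IAPEY_LTR had 0.27 and IAPLTR4_I -0.27 (adjusted p = 0.789 each) there. The abundant internal rows were not called in the authors' deposited table, with IAPEY4_I-int at 0.065, IAP1-MM_I-int at 0.15, IAPEz-int at 0.10, IAP-d-int at 0.11 and IAPLTR3-int at -0.017 (adjusted p = 0.981 each). Of 9 IAP internal sense rows 7 were above 0 (median 0.10), and of 45 ERVK internal sense rows 29 were (median 0.051), beside a median of 0.000 over 1058 sense repeat rows and 530 of them above 0.

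Among other ERVK names at P12, 0 of 428 rows were called. The highest sense folds at 100 or more mean normalized counts in the authors' deposited table were those of RLTR44-int (0.35, adjusted p = 0.333) and RNERVK23-int (0.35, adjusted p = 0.551), and the lowest those of ERVB5_2-LTR_MM (-0.30, adjusted p = 0.621) and ETnERV2-int (-0.27, adjusted p = 0.597), an ETn-type element. Of the 8 other names with the most sense counts, ERVB4_1-I_MM-int and MMERVK10C-int had 0.11 and -0.10 (adjusted p = 0.981 each) in the authors' deposited table. RMER6A (-0.029), RMER19B (-0.092), ERVB4_1B-I_MM-int (0.075), RLTR17B_Mm (0.059), RLTR20A4 (0.067) and RMER4B (-0.022), the rest of these 8, shared that adjusted p, 0.981, per the authors' deposited table. The silencing list had 0 of 42 genes called, where 0.849% of 16130 sense exon rows were, with the lowest adjusted p for Setdb1 (log2 fold -0.26, adjusted p = 0.403), Morc2a (-0.28, 0.429) and Atf7ip (-0.22, 0.682) in the authors' deposited table. Of the testis markers, Cyp17a1, a steroid enzyme of Leydig cells, was higher in KO by 0.76 (adjusted p = 1.22e-04), and Ddx4 and Dazl had -0.12 and 0.034 (adjusted p = 0.986 and 0.994), per the authors' deposited table. Of all 6 testis markers, 1 was called higher and 0 lower, while 4 folds lay below 0 (median -0.10, lowest -0.34). The part of Leydig cells or of other cell types in the repeat folds was not tested.

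**Figure D2:**
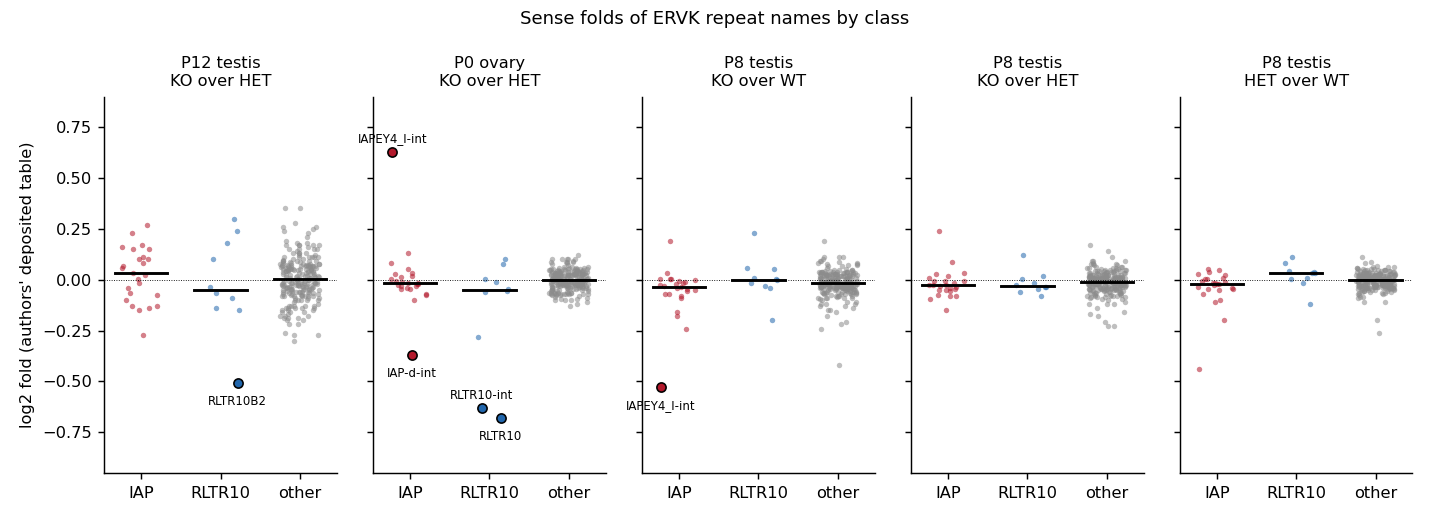
The authors' log2 folds of ERVK sense rows with at least 10 mean normalized counts, by class (IAP, RLTR10, other) and comparison; each point is a repeat name, bars are class medians, and outlined, named points were called at an adjusted p below 0.05. Called names are IAP or RLTR10, 4 in P0 ovary, 1 in P12 testis and 1 in P8 testis against WT.

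At P8, when germ cells are mostly spermatogonia, 1 ERVK row was called in KO against WT testis, and 0 in KO against HET. The called row was again IAPEY4_I-int, lower in KO, the opposite direction to ovary. It is 1 of 558 rows (0.179%), where 0.0414% of 2418 repeat rows were called, so it was the only repeat row called in this comparison. In KO against HET 0% of repeat rows were called, and in HET against WT 0%, so 0 of 558 ERVK rows were called in each. The tables hold no unadjusted p to count beside these zeros, which come from DESeq2 per the submitters' processing notes.

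IAPEY4_I-int had 3244 mean normalized counts at P8. Its log2 fold was -0.53 for KO over WT (adjusted p = 0.0034) but -0.095 for KO over HET (adjusted p = 1) and -0.44 for HET over WT (adjusted p = 0.186), per the authors' deposited table. KO and HET thus lay close together and below the WT, which was 1 library, and both comparisons with KO share the 2 KO libraries. Its LTR, IAPEY4_LTR, had -0.16, -0.049 and -0.11 in the same order (adjusted p = 1 each), and its antisense row -0.051, 0.024 and -0.075, in the authors' deposited table. For KO over WT, the LTR fold of -0.16 was the lowest of the 16 IAP sense rows outside internal parts. IAPEz-int followed the same order, with -0.24, -0.044 and -0.20, and was not called (adjusted p = 1 each) in the authors' deposited table.

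Of other names, RLTR45-int came nearest to a call at P8, with a log2 fold of -0.42 for KO over WT (adjusted p = 0.149), -0.23 for KO over HET and -0.20 for HET over WT (adjusted p = 1 each) in the authors' deposited table. RLTR44-int (-0.24) was next lowest against WT, and RLTR40 (0.19) and RMER19B (0.11) were highest (adjusted p = 1 each) in the authors' deposited table. The other names called in ovary or at P12 were not called at P8 against WT: RLTR10-int had -0.018, RLTR10 -0.039, IAP-d-int -0.078 and RLTR10B2 0.003 (adjusted p = 1 each) in the authors' deposited table. Among IAP sense rows 20 of 25 lay below 0 (median -0.035), among ERVK internal sense rows 36 of 45 (median -0.041), and among other names 147 of 235 (median -0.017), while of 1084 sense repeat rows 546 did (median -0.000). Against HET the IAP median was -0.026 and that of internal rows -0.044, with 33 of 45 below 0. Between the control libraries, HET over WT, 17 of 25 IAP sense rows (median -0.021) and 29 of 45 internal sense rows (median -0.019) also lay below 0. Of other names 120 of 235 did (median -0.002). The silencing list had 0 of 42 genes called, where 0.035% of 20003 sense exon rows were, and its folds ran from -0.15 to 0.17.

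**Figure D3:**
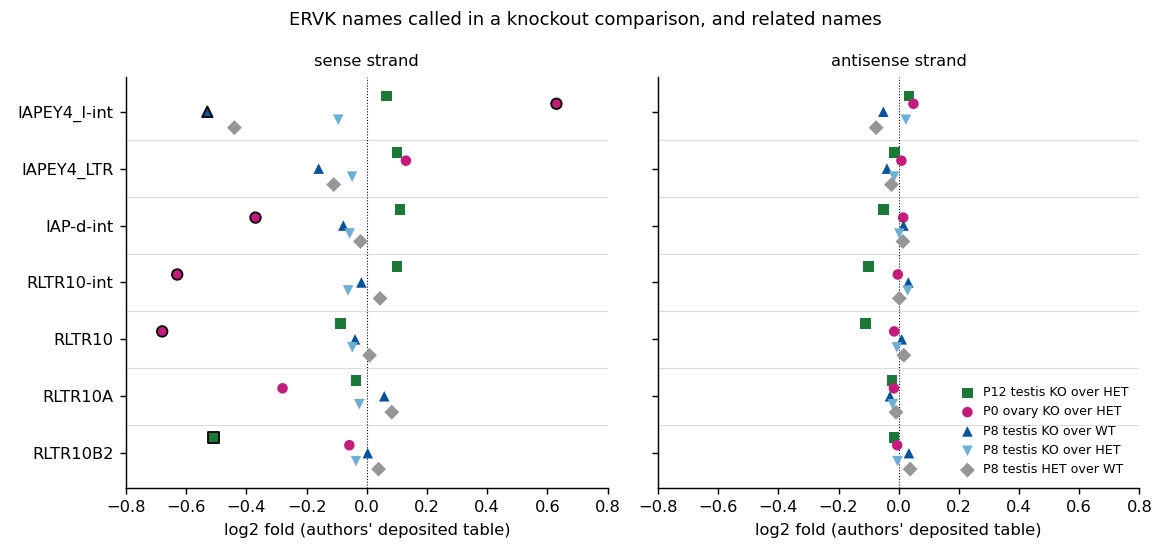
The authors' log2 folds of the 5 ERVK names called in any knockout comparison, with the related IAPEY4_LTR and RLTR10A, on the sense strand (left) and the antisense strand (right); symbols mark the 5 comparisons and a black outline marks a call. IAPEY4_I-int is at 0.63 in P0 ovary and at -0.53 in P8 testis against WT, RLTR10 and RLTR10-int are low in ovary alone among the comparisons shown, and antisense folds stay within 0.11 of 0.

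The m6A table sets 1 IP against 1 input of WT testis at P8, so its calls compare these 2 libraries and have no replicate check. Among ERVK rows, 61 were higher in IP (12.1%) and 21 lower (4.17%) of 503 with an adjusted p, where 14.6% and 9.29% of 1895 repeat rows were. By class, 9 IAP rows were higher and 1 lower of 43, 7 RLTR10 rows higher and 0 lower of 19, and 45 other rows higher and 20 lower of 441. The share of calls among other names, 10.2% higher, was below that of all repeats, and those of IAP (20.9%) and RLTR10 (36.8%) above it, with no test of these differences.

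IAP names divided by strand. Of the 9 IAP rows higher in IP, 8 were antisense, and 22 of 23 antisense rows with at least 10 mean normalized counts had a fold above 0 (median 0.78), while 12 of 25 sense rows did (median -0.080). The antisense fold was above the sense fold of the same name for 19 of 23 names, by a median of 0.95 on the log2 scale, where for repeats outside ERVK it was above for 316 of 701, with a median gap of -0.11. The median gap was 1.10 for the 15 IAP names that do not end in -int (from -0.64 to 2.05) and 0.38 for the 8 that do (from -1.19 to 1.00); these ranges overlap and the difference was not tested. In the authors' deposited table the antisense log2 folds, IP over input, were 2.05 for IAPLTR4 (adjusted p = 2.83e-06), 1.63 for IAPLTR2b (1.13e-05), 1.20 for IAPLTR2a2_Mm (0.0038), 1.07 for IAPLTR2_Mm (0.00392), 1.11 for IAPLTR2a (0.0263), 1.24 for IAPEY_LTR (0.0192), 1.31 for IAPEY5_LTR (0.0283) and 0.70 for IAPLTR3-int (0.0133). An antisense LTR row counts RNA that crosses an LTR against its own direction, such as a host transcript that carries the insertion in reverse, and which transcripts these were was not tested. On the sense strand IAPLTR3 was higher in IP (1.19, adjusted p = 0.0105) and IAPEY4_I-int lower (-0.88, adjusted p = 0.00569), and IAPEz-int had 0.053 (adjusted p = 0.898), per the authors' deposited table.

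All 7 called RLTR10 rows were higher in IP. RLTR10F antisense had the highest fold of IAP and RLTR10 rows, 2.82 (adjusted p = 2.73e-25), beside -0.66 without an adjusted p for its sense row, in the authors' deposited table. RLTR10E likewise was higher in antisense (1.81, adjusted p = 1.52e-09) with -0.53 in sense (adjusted p = 0.544), while RLTR10D was higher in sense (2.14, adjusted p = 2.61e-07) with 0.72 in antisense (adjusted p = 0.282), per the authors' deposited table. The remaining calls there were RLTR10 (1.23, adjusted p = 0.00381) and RLTR10D2 (1.14, 0.0374) in sense and RLTR10C (1.16, 2.01e-04) and RLTR10B2 (1.10, 0.0202) in antisense, as log2 folds of the authors' deposited table. RLTR10-int, lower in KO ovary, had 0.39 in sense (adjusted p = 0.368), per the authors' deposited table. All 10 RLTR10 antisense folds were above 0 (median 0.89), and 7 of 10 sense folds (median 0.38), beside -0.010 and 0.023 over all antisense and sense repeat rows.

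**Figure D4:**
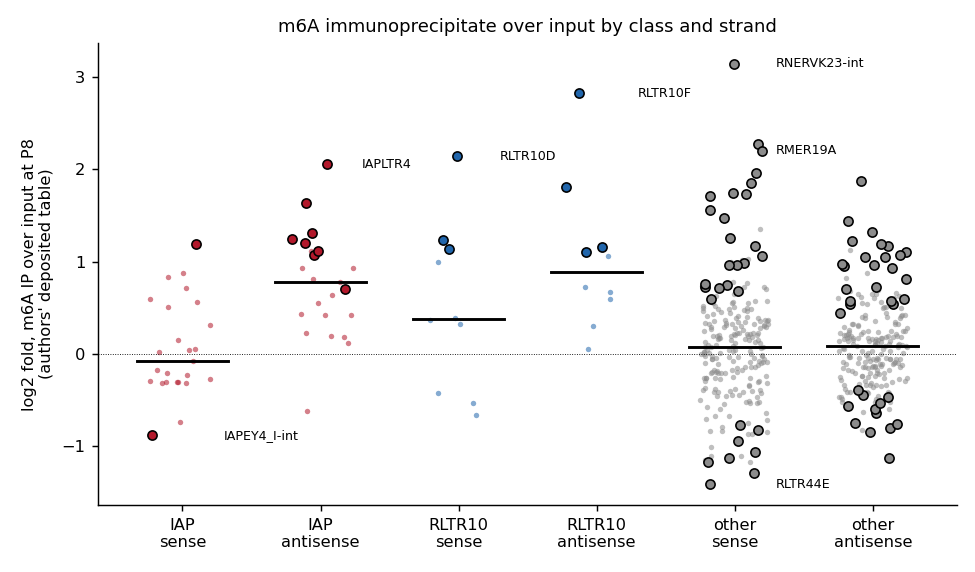
The authors' log2 folds of the m6A immunoprecipitate over input at P8 for ERVK rows with at least 10 mean normalized counts, by class and strand; bars are medians and outlined points were called at an adjusted p below 0.05. IAP antisense rows lie above 0 with 1 exception (median 0.78), IAP sense rows on both sides (median -0.080), and RLTR10 antisense rows all above 0 (median 0.89).

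Among other ERVK names the RMER19 group stood out after the values were seen: all 4 of its sense rows were higher in IP, and 3 of 4 antisense rows. Sense log2 folds in the authors' deposited table were 2.20 for RMER19A (adjusted p = 1.57e-33), 1.73 for RMER19B (3.77e-26), 1.17 for RMER19B2 (5.78e-09) and 1.06 for RMER19C (2.39e-08). RMER19B, with 7351 mean normalized counts, was also the ERVK sense row with the most counts in the m6A table. Over all repeats, 18.3% of sense and 11.1% of antisense rows were higher in IP, and 6.67% and 11.7% lower. The RMER17 group had 2 of 10 sense and 5 of 10 antisense rows higher and 0 lower, and ERVB7 2 of 5 sense and 1 of 5 antisense rows higher and 0 lower. MLTR18 went the other way, with 2 of 5 sense and 1 of 5 antisense rows lower and 0 higher. The highest sense folds in the authors' deposited table were those of RNERVK23-int (3.14, adjusted p = 5.61e-18) and ERVB7_2-LTR_MM (2.27, adjusted p = 1.40e-21), and the lowest those of RLTR44E (-1.41, adjusted p = 0.00488) and MLTR18B_MM (-1.29, adjusted p = 6.06e-06). Another sense row of these names that was higher in IP was RLTR45-int, given below. The rest were RLTR9E, ERVB7_3-LTR_MM, RLTR50B, MMERVK10D3_LTR, RMER17A-int, MurERV4_19-int, LTR10_RN, RLTR18-int, RMER17D, RLTR25B, RLTR44-int, ERVB2_1A-I_MM-int, RLTR49, MLTR11A and RLTR31D_MM, with log2 folds between 1.85 and 0.59 in the authors' deposited table. Besides the pair just named, the sense rows lower in IP were RMER16A3, RLTR13C1, RLTR13D2, MLTR18_MM, RLTR19 and RLTR42-int, between -1.17 and -0.77 in the authors' deposited table. Antisense rows higher in IP were led by RLTR12C (1.87, adjusted p = 3.72e-15), MLTR13 (1.44, adjusted p = 1.67e-05) and RLTR17 (1.32, adjusted p = 3.03e-11) per the authors' deposited table. They also took in MRLTR33, RMER17C2, RMER17C, RLTR13D3, RMER19B2, RMER19B, RLTR34C_MM, RMER17D, ERVB7_1-LTR_MM, ERVB4_1B-LTR_MM, RLTR45, RLTR26_Mus, RMER17B, RMER17A, MMERVK9C_I-int, RMER20C_Mm, RMER6C, RLTR49, RMER12 and RMER19A, between 1.22 and 0.44 in the authors' deposited table. The 12 antisense rows lower in IP were those of MLTR18_MM, MurERV4-int, RLTR17D_Mm, RLTR22_Mus, RMER3D-int, MYSERV16_I-int, MYSERV6-int, MMERVK9E_I-int, RLTR22_Mur, MYSERV-int, RLTR19-int and RMER6A, between -1.13 and -0.39 in the authors' deposited table. Internal parts made 7 of these 12 rows and 1 of the 23 antisense rows higher in IP, of 35 among 228 antisense rows with an adjusted p. In sense they made 1 of the 8 rows lower in IP and 7 of the 22 higher, of 34 among 213. These splits were seen in the values and not tested. RLTR45-int, nearest to a call in KO testis at P8, had 1.96 in sense (adjusted p = 1.09e-10), per the authors' deposited table.

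The knockout folds of rows called in the IP lay near those of the rest, with no test of the difference. The 26 ERVK sense rows higher in IP had a median log2 fold of 0.015 in P12 KO testis, -0.009 in KO ovary and -0.026 at P8 against WT, with 14, 11 and 8 of 26 above 0. Of these 26, RLTR10 in ovary was the 1 called in those 3 comparisons. The 207 sense rows with an adjusted p and no m6A call had medians of -0.006, -0.005 and -0.020. The 9 sense rows lower in IP were all above 0 at P12, with folds from 0.044 to 0.23 and a median of 0.080, and 0 of them was called there. In ovary 5 of these 9 were above 0 (median 0.006) and at P8 2 of 9 (median -0.053), and IAPEY4_I-int was the called one in each. Across sense rows with at least 10 mean normalized counts, Spearman's rho between the m6A fold and the KO fold was -0.09 at P12 (264 rows), -0.03 in ovary (261) and 0.09 at P8 (265), the P8 m6A libraries being WT testis. Across antisense rows it was -0.19 at P12 (261 rows), 0.03 in ovary (259) and 0.02 at P8 (261). Between the KO folds of P12 testis and P0 ovary, which share no library, rho was 0.01 over 263 sense rows. Rows share a library and overlapping sequence and are not independent, so these correlations are descriptions.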

How the data were processed

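Total RNA libraries (14) were stranded and depleted of ribosomal RNA, and the m6A libraries (10) came from a small RNA kit, per the labels' protocols. The m6A folds used here rest on 2 of these 10, while the mean counts and count floors of the m6A table rest on all 10. The authors deposited 1 table per experiment with the mean normalized count over its libraries (a signal, per the file headers), log2 fold changes and adjusted p-values. The submitters' processing notes name mm10 and DESeq2, and cutadapt for the ovary libraries; no source used here gives versions, aligner, repeat annotation or the treatment of reads with several matches. Fold columns of total RNA at P8 and P12 are headed IP against input, while the labels list no IP there, and they were read as KO over control. In the m6A table, rows with a mean count above 0 and no fold numbered 0 at P8, 2911 at P12 and 2823 at P20, so P8 columns alone were matched to names.

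ERVK rows were taken by the ending of the name, and classes by its start. Calls used the authors' adjusted p at 0.05, medians the rows with at least 10 mean normalized counts, and sense shares the names with at least 100 over both strands. Log2 folds were used as deposited, and no model was fitted here. Python 3.11.15 with pandas 2.3.3, numpy 2.4.6 and matplotlib 3.10.9 was used, and the counting of calls was tested on simulated data. Rows named are every ERVK row called, the sense rows with the most counts (5 of IAP and RLTR10, 8 of other names, printed in part), the 2 highest and 2 lowest folds, and listed genes that were called or next in adjusted p. The chromatin genes Trim28, Setdb1, Dnmt1 and Uhrf1 in ovary were named outside this rule. The RMER19, RMER17, ERVB7 and MLTR18 groups and the names related to called rows were picked after their values were seen. Members and lists were chosen with earlier results of these data known. Bind-N-Seq libraries (8) and repeat sequences were not used here.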

Additional observations from a re-analysis of the deposited data

How the results depend on the processing

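No paired analysis was possible because the tables hold no values per library, and for the same reason leaving out each replicate was not run. For the comparisons with calls, counts of called ERVK rows stayed within 1.5 times under 12 of 20 settings; both P8 comparisons without calls stayed at 0, which subsets and stricter thresholds could not change. At P12 the 1 call became 0 at a threshold of 0.01, 2 at 0.1 and 0 on antisense rows alone, and antisense rows alone gave 0 in ovary and 0 at P8 against WT. The 82 m6A calls became 53 at a threshold of 0.01, 35 on sense rows alone and 47 on antisense rows alone. With rows weighted by count, the sense median of IAP became a mean of 0.23 in ovary, -0.21 for KO over WT and -0.16 for HET over WT at P8, and that of RLTR10 in ovary -0.46 (-0.28 with a floor of 100). In the m6A table the floor of 100 gave 0.76 for RLTR10 and 0.15 for other names, which had 0.28 when weighted; 73 of 81 settings for medians stayed within 0.05 or 1.5 times. Among single rows, RLTR10B2 lost its call at 0.01, and IAPEY4_I-int at P8 lost it with HET as the control (-0.095). The median of all sense repeat rows was near 0 in each knockout comparison, so subtracting it tests nothing about the called folds.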
